A study of Mus musculus with 6 samples.

Results

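The 10 genes Cdh1, Epcam, Cldn3, Cldn4, Cldn7, Ocln, Tjp1, Crb3, Dsp and Pkp3, which serve epithelial cell adhesion and junctions, were examined in chromatin accessibility maps of NMuMG cells, a line of normal murine mammary gland epithelium. The genes were chosen by name, and accessible regions up to 100 kb from each 5′ end were collected, which gave 101 distinct regions of the 39435 in the whole series. ATAC-seq, which marks accessible DNA by the insertions of the transposase Tn5, was carried out on cells kept without serum and insulin for 6 h and then given vehicle (BSA with HCl in the protocol, with Tris-HCl in the sample labels, 2 h) or 5 ng/ml TGFβ1 (2 h or 12 h). The 6 samples were 2 biological replicates of each condition, and from each pair the authors made 1 list of reproducible peaks. The vehicle cells were taken at 2 h, so at 12 h the treatment and the longer time without serum cannot be told apart. The line is a single cell culture model with no other cell type added.

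Epithelial sheets are held together by adherens junctions built on E-cadherin, by tight junctions that seal the space between cells, and by desmosomes that tie the keratin filaments of neighbouring cells together. TGFβ is a known inducer of the epithelial to mesenchymal transition, in which epithelial cells take these junctions apart and acquire a migratory form. SNAI and ZEB factors, which repress epithelial genes in that transition, bind the E-box CAGGTG, and AP-1 (JUN and FOS proteins) binds TGACTCA or TGAGTCA.

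Of the 10 genes, the 5′ ends of Ocln, Tjp1 and Dsp lay in an accessible region in all 3 lists, that of Cdh1 in both TGFβ lists but not in vehicle, and that of Cldn4 in the 12 h list alone. The promoters of Cdh1 and Cldn4 are shown because they are the members' promoters that appeared in a TGFβ list and were absent from the vehicle list. The Cldn4 promoter was chosen after its values were seen, since its 2 h region stopped 26 bp before the 5′ end. Each run holds the 250 bases before the 5′ end in the direction of the gene. Capitals mark E-boxes (CAGGTG, or CACCTG on the other strand) and the AP-1 motif (TGACTCA or TGAGTCA). The Cdh1 promoter is chr8:109127001-109127250 of mm9 on the plus strand, and the Cldn4 promoter is chr5:135422805-135423054 on the minus strand.
Cdh1 promoter: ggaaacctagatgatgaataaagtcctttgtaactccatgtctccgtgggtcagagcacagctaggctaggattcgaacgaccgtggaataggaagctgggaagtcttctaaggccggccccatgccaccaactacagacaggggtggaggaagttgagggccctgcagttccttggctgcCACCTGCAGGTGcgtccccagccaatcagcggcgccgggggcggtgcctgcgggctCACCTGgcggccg
Cldn4 promoter: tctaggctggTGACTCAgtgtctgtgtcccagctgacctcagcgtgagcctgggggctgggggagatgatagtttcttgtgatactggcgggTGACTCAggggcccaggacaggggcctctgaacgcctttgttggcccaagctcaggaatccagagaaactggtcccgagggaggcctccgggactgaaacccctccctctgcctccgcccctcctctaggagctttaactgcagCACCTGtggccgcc

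The Cdh1 promoter held 3 E-boxes, whose first bases lay 69, 63 and 13 bp before the 5′ end, and those at 69 and 63 bp adjoined each other without a gap. The 2 h region covered 250 of the 250 promoter bases, the 12 h region covered 223, and both took in all 3 E-boxes. No AP-1 motif was found there. The Cldn4 promoter held 1 E-box at 14 bp before the 5′ end and 2 AP-1 motifs at 240 and 158 bp. The 2 h region covered 225 of its 250 bases and left out the E-box, and the 12 h region covered all 250. No vehicle region overlapped either promoter.

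E-boxes were also found in the promoters of Epcam, Dsp and Pkp3, shown here as 41 bases around each match in the plus-strand direction, in which these genes are transcribed, with the match in capitals. The Epcam windows are chr17:88035115-88035155 and chr17:88035278-88035318, the Dsp window is chr13:38243149-38243189 and the Pkp3 window is chr7:148263877-148263917, on mm9.
Epcam, 187 bp before the 5′ end: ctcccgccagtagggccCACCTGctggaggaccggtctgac
Epcam, 19 bp before the 5′ end: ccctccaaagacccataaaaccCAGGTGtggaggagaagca
Dsp, 31 bp before the 5′ end: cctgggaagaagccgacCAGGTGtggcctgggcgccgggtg
Pkp3, 223 bp before the 5′ end: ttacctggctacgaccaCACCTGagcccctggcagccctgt

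In all, 5 of the 10 member promoters held an E-box on either strand, against 17% of the promoters of all 22367 protein-coding genes. An AP-1 motif was found in 1 of 10, against 3.85% of all. The SMAD palindrome GTCTAGAC and the palindrome AACCGGTT of the grainyhead-like factors, which are activators of epithelial genes, matched none of the 10, against 0.143% and 0.134% of all promoters. Each of these is an exact match of letters and not a measured binding site.

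A region found in both TGFβ lists and not in vehicle is called gained here. The word describes the lists, since a region can be absent from a list because its signal lay under the threshold of the peak calls. The gained region nearest to the 5′ end held an AP-1 motif in the 500 bases around its centre for Epcam, Cldn4, Ocln and Tjp1. The Cldn4 motif is part of the promoter shown above, and the match nearest the centre is shown for the other genes with the AP-1 letters in capitals, read on the plus strand of mm9. The windows are chr17:88009160-88009200 upstream of Epcam, chr13:101306245-101306285 in an intron of Ocln and chr7:72532701-72532741 upstream of Tjp1.
Epcam, region 25766 bp upstream: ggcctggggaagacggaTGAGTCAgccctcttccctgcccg
Ocln, region 16045 bp downstream: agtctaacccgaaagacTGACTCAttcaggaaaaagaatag
Tjp1, region 16107 bp upstream: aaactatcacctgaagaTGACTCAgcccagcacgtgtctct

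For Cdh1, Cldn3, Cldn7, Crb3 and Pkp3 the nearest gained region held no AP-1 motif in that window, and Dsp had no gained region within 100 kb. Over the member loci, 15 of the 30 gained regions held an AP-1 motif, which is 50% and close to the 47.3% of all 11246 gained regions of the series. In the 200 bases around the centres the shares were 30% at the member loci and 31.2% in the series. Among the regions of all 3 lists the shares were 22.7% at the member loci (10 of 44) and 24.4% in the series. E-boxes were found in 13 of the 30 gained regions, 43.3% against 30.2% of all gained regions, and in 14 of the 44 regions of all 3 lists, 31.8% against 30.8%. No interval was computed for these motif shares, and no difference from the series was tested. The SMAD palindrome matched no member region of either kind, and was rare in the series too (1.13% of gained regions and 0.488% of regions of all 3 lists). The grainyhead-like palindrome matched 1 of the 30 gained regions (3.33%, against 0.133% in the series), a single match. That region lay 73000 bp upstream of Cdh1 in an intron of Cdh3, the gene of P-cadherin.

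The adherens junction gene Cdh1 encodes E-cadherin, the cadherin that joins epithelial cells to each other. At its 5′ end (chr8, position 109127251) the 2 h list and the 12 h list each held a region of 431 bp, the former from 251 bp before to 179 bp after the 5′ end and the latter from 223 bp before to 207 bp after. The nearest vehicle region measured 203 bp and lay 11425 bp downstream, in an intron of Cdh1. This state of the 5′ end, both TGFβ lists without vehicle, was that of 1 of the 10 members and of 4.71% of all protein-coding genes.

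Within 100 kb of the Cdh1 5′ end there were 16 regions, of which 6 stood in all 3 lists, 6 were gained, 2 were in the 2 h list alone and 2 in the 12 h list alone. The gained regions were the promoter, 3 intronic regions of Cdh1 and 2 intronic regions of Cdh3. The intronic ones of Cdh1 lay 4930 bp (455 bp wide at 2 h and 453 bp at 12 h), 16109 bp (691 and 658 bp) and 52486 bp (318 and 522 bp) downstream of the 5′ end. The regions of the 2 h list alone, 8777 and 39741 bp downstream, also lay in Cdh1 introns. Among the Cdh1 regions of all 3 lists, the one 25564 bp upstream widened by most to 12 h, from 427 bp (vehicle) to 803 bp (2 h) and 782 bp (12 h).

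Epcam encodes an adhesion molecule of epithelial cell surfaces. Its 5′ end lay in no region of any list. The nearest region was 18968 bp upstream, 211 bp wide and in the 2 h list alone, while the nearest region of the vehicle list was 22162 bp and that of the 12 h list 22151 bp upstream. Of its 10 regions, 3 stood in all 3 lists, 3 were gained, 2 were in the 2 h list alone and 2 in the 12 h list alone. The region 64044 bp upstream widened by most to 12 h, from 450 bp in vehicle to 867 bp at 2 h (joined from 2 peak intervals) and 899 bp at 12 h.

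The claudins Cldn3, Cldn4 and Cldn7 are the membrane proteins that form the strands of tight junctions. The 5′ ends of Cldn3 and Cldn7 lay in no region of any list, and the nearest regions stood 11529 bp upstream of Cldn3, in the 2 h list alone, and 15228 bp downstream of Cldn7, in all 3 lists. At the 5′ end of Cldn4 (chr5, position 135422804) the 12 h region ran from 360 bp before to 69 bp after the 5′ end and measured 430 bp, and the 2 h region measured 318 bp and ended 26 bp before it. The nearest vehicle region lay 11928 bp upstream and measured 612 bp. A 5′ end in the 12 h list alone was the state of 1 of the 10 members and of 1.20% of all protein-coding genes. When both TGFβ lists were shortened to the number of intervals of the vehicle list by removing the narrowest, the 5′ ends of Cdh1 and Cldn4 lay in no list.

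Cldn3 and Cldn4 are neighbours on chromosome 5 and their windows overlap, so that all 14 regions of Cldn4 also count for Cldn3. In the total of 101 each is counted once. Gained regions stood on either side of Cldn4, 3702 bp downstream (294 bp at 2 h and 412 bp at 12 h) and 4165 bp upstream (371 and 758 bp), and the latter was also the gained region nearest to Cldn3, 34358 bp upstream of it. The region 11928 bp upstream of Cldn4 widened by most to 12 h among those near either gene, from 612 bp (vehicle) to 693 bp (2 h) and 731 bp (12 h). A region of 150 bp with a vehicle score of 601, 23863 bp downstream of Cldn3 at the neighbouring gene Abhd11, stood in the vehicle list alone. The vehicle score is a peak score without a stated scale that ran from 540 to 1000.

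The Cldn7 window was the richest, with 17 regions, but none had Cldn7 as its nearest protein-coding 5′ end, and 16 other protein-coding genes start within it. Of the 17 regions, 9 stood in all 3 lists, 5 were gained and 3 were in the 12 h list alone. The nearest gained region lay 15616 bp upstream at Slc2a4, a glucose transporter gene, where the 2 h part (181 bp) and the 12 h part (299 bp) lay near each other without overlap. The largest gain of width at 12 h was at the 5′ end of Eif5a, a translation factor gene 42710 bp upstream, where the width was 926 bp with vehicle, 2443 bp after 2 h and 2456 bp after 12 h. This region was 1 peak interval in vehicle and was joined from 2 at 2 h and 2 at 12 h, so its width includes any gap between them.

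Ocln encodes occludin, a membrane protein of tight junctions, and Tjp1 encodes ZO-1, the scaffold that links tight junction proteins to actin. Both 5′ ends were covered in all 3 lists. The Ocln region spanned 815 bp (vehicle), 1723 bp (2 h) and 1312 bp (12 h), and the Tjp1 region 855, 1186 and 1068 bp. Both were thus widest at 2 h and remained wider at 12 h than in vehicle, and no other region near either gene widened by more to 12 h. All 3 lists covered the 5′ end in 3 of the 10 members and in 35.5% of all protein-coding genes.

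An intronic region 19393 bp downstream of the Ocln 5′ end, 547 bp in vehicle with a score of 1000 and 594 bp at 2 h, was missing from the 12 h list. A gained intronic region lay 16045 bp downstream (581 and 760 bp). The Tjp1 window held no other protein-coding 5′ end, and all of its 9 regions had Tjp1 as the nearest. Only 2 of these stood in all 3 lists, against 4 that were gained, 2 of the 2 h list alone and 1 of the 12 h list alone. The gained regions of Tjp1 all lay upstream, at 16107 bp (559 and 607 bp), 39310 bp (503 and 540 bp), 80797 bp (534 and 217 bp) and 96169 bp (1123 and 1124 bp).

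Crb3 encodes a small Crumbs protein that sets the apical side of epithelial cells. Its annotated 5′ end lay in no region, but all 3 lists held a region in its first kilobases, 1071 bp downstream at the nearest, in an intron. This region spanned 576 bp (vehicle), 634 bp (2 h) and 720 bp (12 h), and lay 313 bp from the 5′ end of the neighbouring gene Slc25a23. Of its 8 regions 6 stood in all 3 lists, and the one gained region, 46137 bp downstream, lay at the 5′ end of Tnfsf9. The largest gain of width at 12 h was 61090 bp upstream at Alkbh7, from 390 bp in vehicle to 996 bp at 2 h and 875 bp at 12 h.

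Dsp encodes desmoplakin, which anchors keratin filaments to the desmosome, and Pkp3 encodes plakophilin 3, a plaque protein of the same junction. The region at the Dsp 5′ end (chr13, position 38243197) spanned 579 bp (vehicle), 2000 bp (2 h) and 2850 bp (12 h), which was the largest widening at 12 h among the member regions (2271 bp). It was joined from 1 peak interval (vehicle), 2 (2 h) and 3 (12 h), and its width includes the gaps between them. The added length lay downstream, where the region ended 306 bp (vehicle), 1665 bp (2 h) and 2608 bp (12 h) after the 5′ end, and it took in the 5′ end of the gene model Gm10129. A region 61113 bp upstream of Dsp, 324 bp in vehicle with a score of 559 and 359 bp at 2 h, was missing at 12 h.

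The Pkp3 5′ end lay in no region of any list, and the nearest, 28542 bp upstream, was in all 3 lists with widths of 941 bp (vehicle), 1759 bp (2 h) and 1800 bp (12 h). This was also the Pkp3 region that widened by most to 12 h. It was 1 peak interval in vehicle and was joined from 2 at 2 h and 2 at 12 h, so its width includes any gap between them. A region 36094 bp upstream, 681 bp in vehicle with a score of 1000 and 903 bp at 2 h, was missing from the 12 h list. A region 98070 bp downstream stood in vehicle (154 bp, score 710) and at 12 h (177 bp) but not at 2 h. The nearest gained region lay 68654 bp upstream, 1206 bp from the 5′ end of Ifitm3, an interferon-induced gene. No list covered the 5′ end in 5 of the 10 members (Epcam, Cldn3, Cldn7, Crb3 and Pkp3), which was the state of 57.2% of all protein-coding genes.

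**Figure D1:**
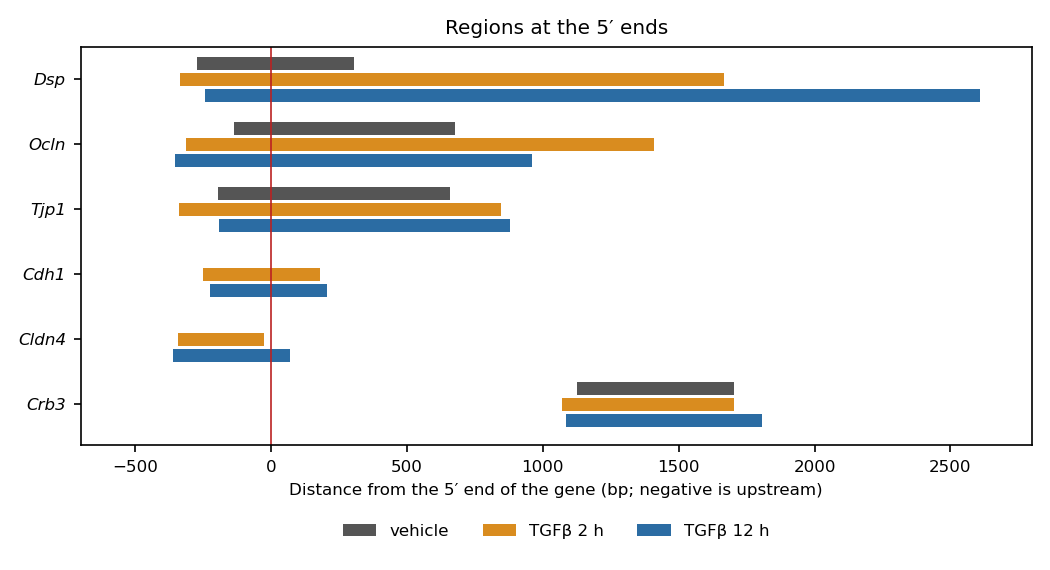
Regions at or near the 5′ ends of 6 member genes. The horizontal axis gives the distance from the 5′ end in bp along the gene (negative is upstream, red line at 0), and each bar is the region of 1 list (grey, vehicle; orange, TGFβ 2 h; blue, TGFβ 12 h). Cdh1 and Cldn4 have no vehicle bar, the Dsp region ends 306, 1665 and 2608 bp after the 5′ end, and the Crb3 regions start over 1 kb downstream.

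Counted by list, the 10 loci together held 50 vehicle regions, 87 regions of the 2 h list and 87 of the 12 h list, which covered 29044, 65024 and 64946 bp. The whole lists held 16765, 32548 and 33079 regions, so the series too had more regions after TGFβ than with vehicle. A member window held 6 to 17 regions with a median of 10, and the window of a protein-coding gene in general held a median of 5. Regions of all 3 lists were the most frequent, with 44 of 101 (43.6%, 95% Wilson interval 34.3 to 53.3) against 38.4% in the series. Gained regions numbered 30 (29.7%, 21.7 to 39.2) against 28.5%, so that this share was near that of the series. The 12 h list alone held 12 (11.9%, against 16.3%) and the 2 h list alone 10 (9.90%, against 12.9%). Vehicle and 2 h without 12 h were found at 3 regions (2.97%, against 2.25%), vehicle and 12 h without 2 h at 1 (0.990%, against 0.388%) and vehicle alone at 1 (0.990%, against 1.16%). These intervals cover counting error only, as regions of 1 locus are not independent of each other, and with 1 list per condition no test between conditions was possible.

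**Figure D2:**
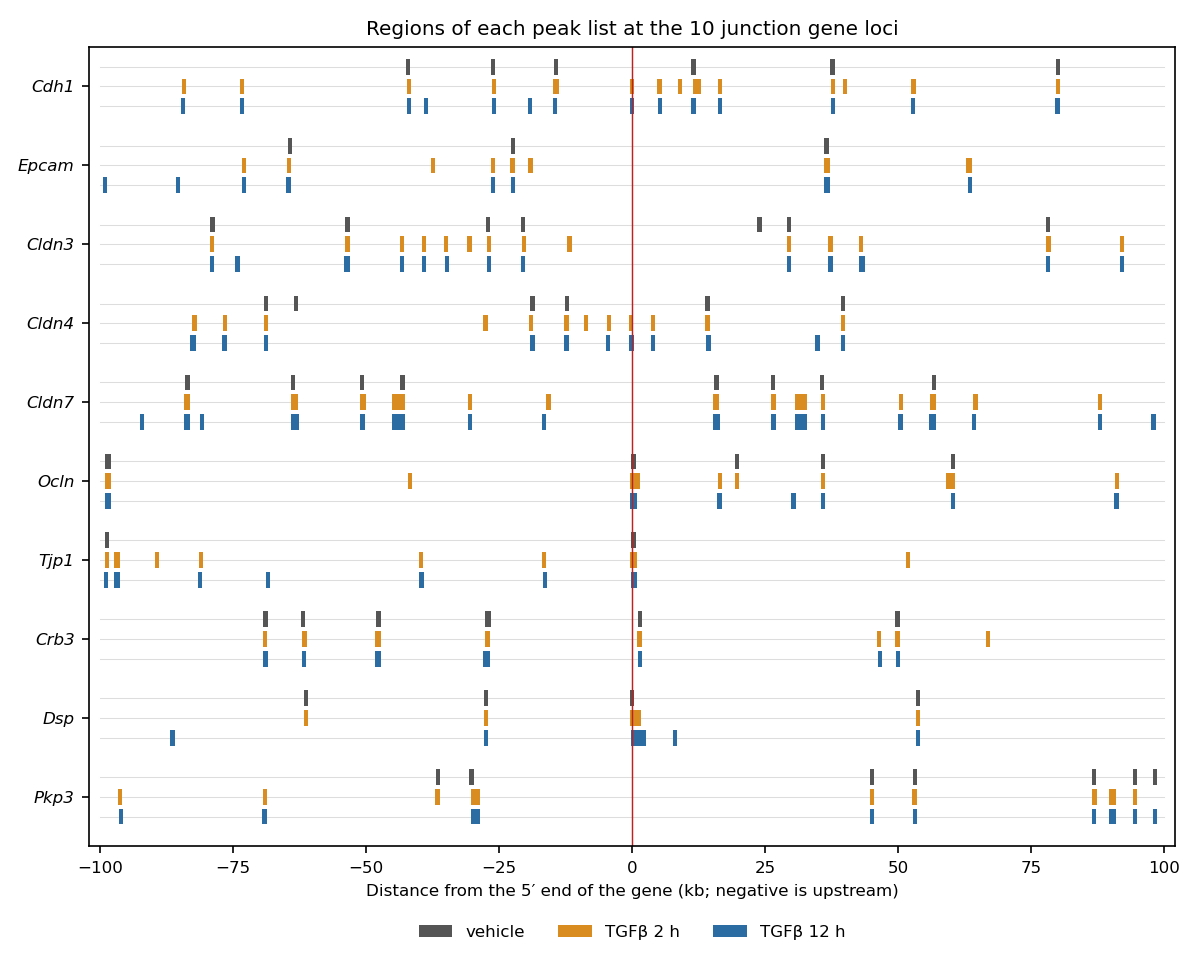
Map of the regions of each list around the 5′ ends of the 10 genes, 100 kb to either side. In the Cldn7 region 30566 bp downstream, which stood in all 3 lists, the 2 vehicle regions are not drawn. The horizontal axis is the distance from the 5′ end in kb along the gene (red line at 0), the 3 tracks of a gene are vehicle (grey), TGFβ 2 h (orange) and TGFβ 12 h (blue), and regions narrower than 0.8 kb are drawn 0.8 kb wide. Tjp1 shows 2 vehicle regions beside 8 at 2 h and 7 at 12 h, whereas Crb3 shows 6, 8 and 7.

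Of the 87 member regions of the 2 h list, 40 had no vehicle counterpart (46.0%, 35.9 to 56.4), against 50.7% of the whole 2 h list. At 12 h these were 42 of 87 (48.3%, 38.1 to 58.6), against 53.9%. Both intervals include the share of the whole list. With the TGFβ lists shortened by width as above, the member shares were 27.3% and 34%, against 30.1% and 33.2% of the whole shortened lists, and 11 of the 70 member regions then found were gained (15.7%, against 12.6% in the series). Regions without a vehicle counterpart were narrow, with medians of 454 bp at 2 h and 506.5 bp at 12 h, beside 867 and 781 bp for those with one. Given the widths of the member regions, the shares of the whole lists in 10 width bins would give 40.6 such regions at 2 h and 44.2 at 12 h. In the other direction, 2 of the 50 vehicle regions had no counterpart at 2 h (4.00%, 1.10 to 13.5), against 3.95% of all vehicle regions, and 4 had none at 12 h (8%, 3.15 to 18.8), against 8.60%. The member loci thus did not differ from the series in these shares by more than the counting error.

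**Figure D3:**
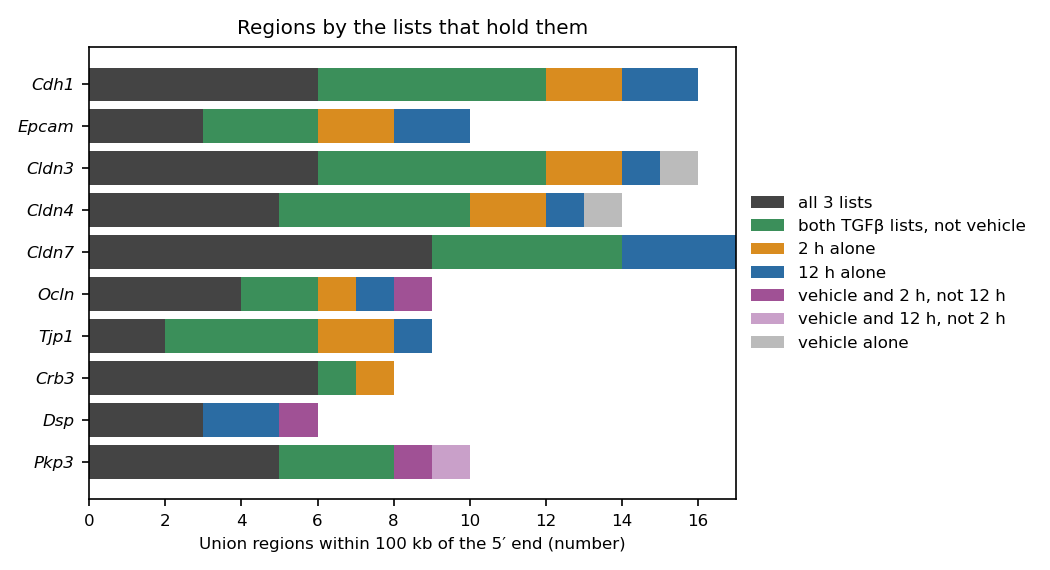
Number of regions within 100 kb of each 5′ end, split by the lists that hold them. Each bar is 1 gene and the horizontal axis counts regions. All 14 regions of the Cldn4 bar also lie in the Cldn3 window and are counted in both bars. Tjp1 has 4 gained regions beside 2 of all 3 lists, and Dsp has no gained region.

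Position split the regions of both kinds. Within 1000 bp of an annotated start site, 27 of the 37 member regions stood in all 3 lists (73.0%, against 76.7% in the series) and 9 were gained (24.3%, against 13.5%). Away from start sites, 17 of 64 stood in all 3 lists (26.6%, against 22.8%) and 21 were gained (32.8%, against 34.7%). These counts are small, no interval was computed for their shares, and the differences from the series were not tested. By annotation, 44 of the 101 regions were intergenic, 22 lay in introns, 28 touched a coding exon and 7 touched an untranslated exon only. A member held the nearest protein-coding 5′ end for 35 of the 101 regions, so most regions in these windows lay nearer to another gene.

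Most matched regions were wider after TGFβ. At 2 h, 42 of the 46 regions matched one to one with a vehicle region were wider (91.3%, 79.7 to 96.6), against 82.7% of all matched regions, and the median difference was 193.5 bp (range −198 to 1517) against 147 bp. At 12 h, 41 of 44 were wider (93.2%, 81.8 to 97.7), against 83.6%, and the median difference was 178.5 bp (−46 to 2271) against 175 bp. Without merging of separate intervals the member values were lower, 85.1% and 148 bp at 2 h, and 91.1% and 144 bp at 12 h. Series values without merging are not given here, so part of the difference from the series may go with the merging, which was not tested. Of the 43 regions found once in each list, 37 were wider at both times than in vehicle (86.0%, against 75.7%). The width was greatest at 2 h in 18 (41.9%, against 40.5%) and at 12 h in 23 (53.5%, against 50.1%). Their median widths were 579 bp (vehicle), 867 bp (2 h) and 781 bp (12 h), and those of the series 600, 825 and 854 bp. Width is the extent of called peaks and not a measure of signal, and the lists give no read depth.

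A small group was widest at 2 h by a margin. In 5 of the 43 regions (11.6%, against 3.95%) the 2 h width was at least 1.5 times that in both other lists, a limit chosen after the widths were seen. In none of the 43 was the 12 h width at least 1.5 times both others, against 5.83% in the series. Of the 5, an intronic region of Cdh1 11362 bp downstream of the 5′ end spanned 203 bp (vehicle), 1573 bp (2 h) and 288 bp (12 h), and a region 13745 bp upstream of Cdh1 measured 511, 1032 and 531 bp. Between Cldn4 and Cldn3, a region 18648 bp upstream of Cldn4 measured 189, 579 and 180 bp. Beyond Cldn3, a region 29198 bp downstream of its 5′ end, with Abhd11 as the nearest gene, measured 204, 501 and 179 bp. The fifth, at the 5′ end of the general transcription factor gene Gtf2h2, 59007 bp downstream of the Ocln 5′ end, measured 634, 1635 and 701 bp. At the Cdh1 intron and at Gtf2h2 the 2 h region was joined from 2 intervals. Without joining the count was 3, and no series share for that setting is given here. With the TGFβ lists shortened by width, the count was 0. That shortening removes the narrowest intervals and the count needs a region in each list. Regions narrow at 12 h can thus drop out, and the 0 does not show whether the pattern is stable.

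**Figure D4:**
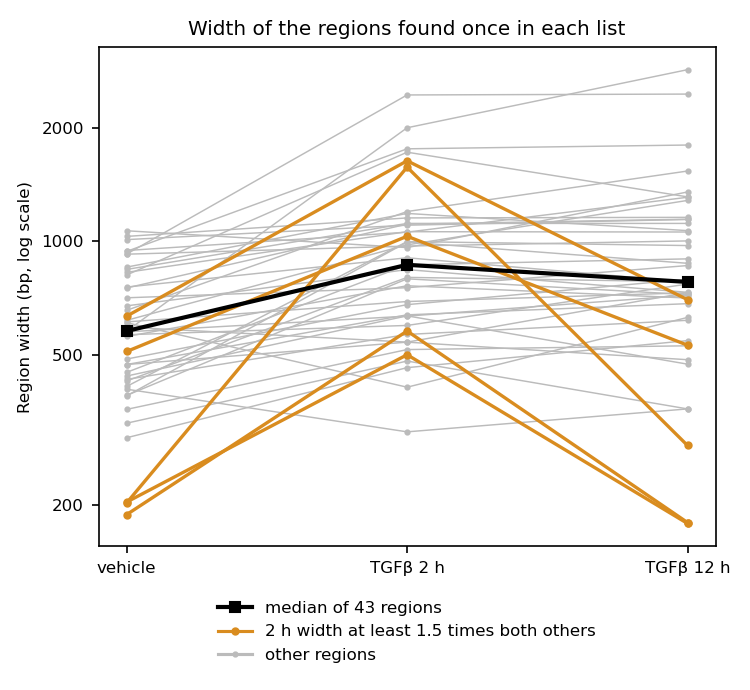
Width of the 43 member regions found once in each list, in bp on a log axis, for vehicle, TGFβ 2 h and TGFβ 12 h. Each thin line is 1 region, orange marks the 5 with a 2 h width of at least 1.5 times both others, and black squares are the medians (579, 867 and 781 bp). The orange lines rise at 2 h and fall again at 12 h.

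The states of other junction genes and of mesenchymal adhesion genes were counted for comparison. Among 35 other genes of tight junctions, adherens junctions and desmosomes, the 5′ end was covered for 19 (vehicle), 22 (2 h) and 22 (12 h), beside 3, 4 and 5 of the 10 members. The 3 that were covered in both TGFβ lists only were the claudin Cldn23 (875 bp at 2 h and 946 bp at 12 h), the polarity scaffold Inadl (887 and 768 bp) and the plakophilin Pkp1 (377 and 570 bp). Their windows held 277 regions, of which 135 stood in all 3 lists (48.7%, against 38.4% in the series) and 71 were gained (25.6%, against 28.5%). The sets of regions overlap, since the region 22306 bp from the 5′ end of Marveld2, one of these genes, also lies in the Ocln window. Among 10 mesenchymal adhesion genes, the 5′ end was covered for 5 (vehicle), 6 (2 h) and 7 (12 h), the additions being the integrin gene Itgb3 in both TGFβ lists (895 and 669 bp) and the matrix protein gene Sparc at 12 h alone (615 bp). Their windows held 76 regions, 22 in all 3 lists (28.9%, against 38.4% in the series) and 29 gained (38.2%, against 28.5%). Cover in all 3 lists was found for 19 of the 35 other junction genes and 5 of the 10 mesenchymal genes, and in no list for 13 and 3. Over all protein-coding genes it was found in all 3 lists for 35.5%, in both TGFβ lists only for 4.71% and in no list for 57.2%. The share of all genes covered in each list taken alone is not given here. No test was run between these lists of genes.

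The cell type was checked at the 5′ ends of markers. Of 18 epithelial markers, the 10 members included, the 5′ end was covered for 6 (vehicle), 7 (2 h) and 8 (12 h). Cover in all 3 lists was found for 6 of the 18 (33.3%) and in no list for 10 (55.6%), near the 35.5% and 57.2% of all protein-coding genes. Of the 8 markers that are not members, the keratins Krt8 and Krt18 and the epithelial factor Elf3 were covered in all 3 lists, and Krt7, Krt19, Grhl2, Ehf and Esrp1 in none. The nearest region of any list lay 361 bp from the 5′ end of Ehf and 708 bp from that of Krt19. For Krt7, Grhl2 and Esrp1 it lay 21423, 30717 and 57736 bp away. By cover of the 5′ end itself, the epithelial markers were thus not set apart from all protein-coding genes. Of 3 immune, 3 endothelial and 2 adipocyte markers, 0 were covered in any list, and the smallest distance to a region was 3272 bp, at Plin1.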

How the data were processed

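ATAC-seq libraries from 6 samples were grouped by the sample labels. The authors used the ENCODE ATAC-seq pipeline, mapped reads to mm9 (NCBIM37), called peaks with MACS2 2.1.2 and kept peaks reproducible between both replicates, and they deposited 1 peak list per condition with coordinates in bp. The vehicle list also has a deposited peak score of unstated scale, used only as a description. In both TGFβ lists that column numbers the lines and was not used. The lists held 52626, 100459 and 105334 lines and 18994, 36867 and 36874 distinct intervals for vehicle, 2 h and 12 h. They hold no value per replicate, so no test was run, and no read depth. The read totals that the study gives for each library were not used.

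Intervals under 150 bp were dropped, and gaps under 1000 bp were merged within each list and over the 3 lists. Regions were matched by an overlap of at least 1 bp. The 5′ ends were those of GENCODE vM1 genes. Motifs were searched as exact matches on both strands in the 500 bases around region centres and the 250 bases before 5′ ends, in NCBIM37 sequence. Coordinates are 1-based. All 10 members were named, with the region at the 5′ end, the nearest gained region, the region that widened by most to 12 h, and regions in 1 or 2 lists that hold vehicle. Members and gene lists were chosen with earlier results of these data known. In tests on simulated data, 0 of 4200 interval comparisons disagreed with direct counts. Python 3.11.15, numpy 2.4.6, scipy 1.17.1 and matplotlib 3.10.9 were used.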

Additional observations from a re-analysis of the deposited data

How the results depend on the processing

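The lists hold 1 value per condition, so the limits are those of peak calls without replicate spread, and the lists give no read depth. No paired analysis was possible because each list was made from both replicates and no result comes from a test, and no replicate could be left out. Of the values recomputed under other settings, 146 moved by less than their error or by less than 1.5 times and 27 by more. Many of the 146 came from leaving out the regions of 1 member at a time, and each of those stayed within these limits. Leaving out Cldn4 could change nothing, because its regions all lie in the Cldn3 window too. The count of 146 is therefore not a measure of stability under the changes of processing. The share of 12 h regions without vehicle was under that of the series in the main setting (48.3% against 53.9%). With the TGFβ lists shortened by width it was just over it (34% against 33.2%). With the narrower intervals of each list removed there were 63 regions at the member loci, 24 in all 3 lists and 19 gained. Shortening both TGFβ lists to the number of intervals of the vehicle list, by width, left 11 gained regions, 27.3% of 2 h and 34% of 12 h regions without vehicle, and 18% and 32% of vehicle regions without a 2 h or 12 h counterpart. In these shortened lists 3 member 5′ ends were covered at 12 h, those of Cdh1 and Cldn4 were in no list, and 0 regions were at least 1.5 times as wide at 2 h as in both other lists. That count was 3 without merging and 3 with gaps under 500 bp merged, settings chosen after seeing the data. With a reciprocal overlap of 50%, 60.9% of 2 h regions had no vehicle counterpart, and 32% and 28% of vehicle regions had none at 2 h and 12 h. Windows of 50 kb held 58 regions, 28 in all 3 lists and 15 gained, and windows of 10 kb held 12, 4 and 5, with 63.6% of 2 h and 60% of 12 h regions without vehicle and 0% of vehicle regions lost at either time. Among vehicle regions with the highest score, 100% were wider at 12 h (of 23), beside 93.2% of 44 in the main setting. No series shares are given here for the highest scores, the reciprocal overlap or the other windows. None is given for the vehicle regions lost in the shortened lists either. Those values are therefore not set against the series. In windows of 100 bases to either side of the centre, 30% of gained regions held an AP-1 motif. Shorter windows and shorter lists hold fewer regions by construction, and the cause of the other shifts was not tested.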

Other observations

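Gained regions in these windows also fell on the 5′ ends of neighbouring genes that are not junction genes. Of the 30 gained regions, 5 took in a protein-coding 5′ end in the 2 h list and in the 12 h list alike, that of Cdh1 and those of 4 neighbours. The share of all gained regions of the series that do so is not given here, so this count is a description only. The neighbours were the syntaxin gene Stx1a (502 bp at 2 h and 645 bp at 12 h) and the vesicle sorting gene Vps37d (794 and 787 bp) near Cldn3, the fatty acid oxidation gene Acadvl (453 and 730 bp) near Cldn7, and the cytokine gene Tnfsf9 (557 and 777 bp) near Crb3. At Cldn4 and at Slc2a4 the 12 h region covered the 5′ end and the 2 h region did not.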
